A study of Mus musculus with 15 samples.

Results

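The genes described here carry out protein folding in the endoplasmic reticulum (ER) and the first steps of secretion: ER chaperones, protein disulfide isomerases, the sensors and transcription factors of the unfolded protein response, ER-associated degradation, translocation into the ER, and vesicle traffic between the ER and the Golgi. They were chosen by function as a list of 44 genes, and all 44 were among the 18193 genes measured. Each gene is represented by a single probe set, the brightest on average among those that name this gene alone. For 29 of the 44 genes there was more than 1 such probe set.

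The study profiled RNA from mouse lung on 15 Affymetrix arrays of 1 colour, 3 in each of 5 groups. The tumours were parts of single lung tumours taken at 12 months from mice that carry a Smad4 deletion in their genotype. The DD lungs, named by the code in their titles, were parts of whole lung taken at 7 months from mice of the same genotype. The pD lungs came at 7 months from mice of a second mutant genotype, without the Smad4 deletion. A further deletion is shared by the tumours, the DD lungs and the pD lungs, and effects below belong to whole genotypes. Wild type lungs were taken at 12 months and at 7 months, where their titles carry the code FF. All mice were of mixed background, on normal feed and without treatment, and the labels do not say what drives the deletions or in which cells. Per the series design, the 12-month arrays compare tumours with wild type lungs, and the 7-month arrays look for changes before tumours begin. DD and pD lungs were set against the same 3 wild type arrays, so these comparisons are not independent.

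Unfolded proteins in the ER are sensed by IRE1, which cuts the Xbp1 message so that it codes for an active factor, by ATF6, which is cleaved in the Golgi to free its own factor, and by the kinase PERK, which slows translation and favours that of ATF4. XBP1 and ATF6 are known to raise chaperones, disulfide isomerases and degradation genes, while ATF4 raises genes of amino acid supply and, under lasting stress, Ddit3 (CHOP). In the airway, goblet and club cells secrete much protein and rely on this machinery, and IRE1 beta, the product of Ern2, is known as the IRE1 form of mucus-producing epithelium.

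Intensities are on the authors' linear scale, with array medians from 90.9 to 99.5, and between 17.1% and 21.1% of the values on an array lay below 16. Log2 values correlated at 0.982 to 0.996 over genes within a group. Smad4 was not lower in the mice with its deletion than in wild type mice: it read 2965 to 3688 in tumours and 2664 to 2924 in wild type lungs at 12 months, and 3166 to 3364 in DD lungs, 2926 to 2944 in pD lungs and 3163 to 3304 in wild type lungs at 7 months. On its other probe sets too, the lowest and the highest values of those mice lay above the wild type ones of the same age. The sources used here do not say which exons are deleted, and a probe outside them checks nothing, so groups are called by their labels. Lung markers were present in every group but lower in some tumours: 9 alveolar type 2 markers summed to 36731 to 66895 in tumours, against 61959 to 65190 in wild type lungs at 12 months, with a median difference of -0.52 (log2), all 9 negative and 0 called with limma (1 at an unadjusted p under 0.05). Of 8 alveolar type 1 markers 2 were called lower in tumours, with a median of -0.75. The 18S ribosomal control probe sets read 1121 to 2036 in tumours, below 5492 to 6933 in wild type lungs at 12 months. By Xist, which is made from an inactive X chromosome, and Y-linked genes, the tumours and wild type array 2 at 12 months read as male and wild type arrays 1 and 3 as female, while all 7-month arrays but wild type array 3 carried both signals. The labels do not say whether these samples are pools of animals, and the spread between pools is not that between animals.

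Short DNA elements known to bind the factors named above mark some of these promoters, and 4 promoters are shown as examples for ERSE, UPRE and CARE. Promoter sequences are from RefSeq on build GRCm38.p6, read 5′ to 3′ on the gene's strand and ending at the base before the annotated gene start. The 250 bases before Hspa5 (chr2:34771840-34772089, plus strand) hold the ER stress response element (ERSE), whose letters are given in capitals.
Hspa5: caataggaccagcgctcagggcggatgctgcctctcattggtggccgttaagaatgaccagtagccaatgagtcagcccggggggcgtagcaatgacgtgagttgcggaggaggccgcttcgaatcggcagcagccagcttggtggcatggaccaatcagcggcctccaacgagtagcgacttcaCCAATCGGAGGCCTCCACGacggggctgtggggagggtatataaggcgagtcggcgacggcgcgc
The unfolded protein response element (UPRE) is in capitals before Kdelr3 (chr15:79516158-79516407, plus strand), where it reads on the opposite strand, and before Sec24d (chr3:123267246-123267495, plus strand).
Kdelr3: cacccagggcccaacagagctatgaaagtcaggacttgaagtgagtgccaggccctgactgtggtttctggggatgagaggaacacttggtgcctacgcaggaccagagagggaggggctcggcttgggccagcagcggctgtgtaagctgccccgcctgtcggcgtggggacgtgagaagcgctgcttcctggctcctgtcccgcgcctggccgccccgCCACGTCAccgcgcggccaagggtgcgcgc
Sec24d: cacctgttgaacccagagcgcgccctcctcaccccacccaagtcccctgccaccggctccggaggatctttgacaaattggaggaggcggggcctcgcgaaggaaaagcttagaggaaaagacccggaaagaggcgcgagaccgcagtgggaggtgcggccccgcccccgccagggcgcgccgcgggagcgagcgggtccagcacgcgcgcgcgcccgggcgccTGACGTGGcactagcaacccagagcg
The C/EBP-ATF response element (CARE) is in capitals before Asns (chr6:7693210-7693459, minus strand), a known ATF4 target.
Asns: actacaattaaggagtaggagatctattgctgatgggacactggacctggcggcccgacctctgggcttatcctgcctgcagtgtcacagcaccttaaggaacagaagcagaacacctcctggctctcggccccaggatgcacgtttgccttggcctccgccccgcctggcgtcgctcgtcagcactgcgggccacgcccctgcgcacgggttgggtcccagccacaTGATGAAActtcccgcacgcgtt
Searched on both strands over 250 bases before to 50 bases after the start, ERSE (CCAAT, then 9 bases of any kind, then CCACG) matched 9 of the 36 member genes with a promoter in the table, against 0.119% of all 32851 promoters. They were Hspa5, Hsp90b1, Calr, Canx, Dnajc3, Creld2, Pdia6, Syvn1 and Derl3. ERSE-II (ATTGG, 1 base of any kind, then CCACG) matched Dnajb11 and Herpud1, against 0.0365% of all promoters. UPRE (TGACGTGG) matched Kdelr3 and Sec24d among the members, against 0.676% of all promoters. CARE (TGATGNAA) matched 1 member, Herpud1, and 8 of 17 ATF4 target genes with a promoter, against 3.97% of all promoters. ERSE, ERSE-II and UPRE share the letters CCACG on one strand or the other, but no matches overlapped in a member's promoter. Both the lists and the elements were taken from what was known of these responses. The match shares therefore describe the promoters and test nothing about the members. A member counted once when any of its promoters matched, whereas all promoters were counted singly.

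Of the 44 genes, 10 were called at an adjusted p under 0.05 in at least 1 of the 5 comparisons, and 34 in none. The share of all genes called in at least 1 comparison was not computed, so the shares below are per comparison. In tumours 5 genes were higher and 0 lower than in wild type lungs at 12 months. This is 11.4% of the members, against 9.23% of all genes called higher and 6.02% called lower. In DD lungs 3 genes were higher and 0 lower than in wild type lungs at 7 months (6.82% of the members, against 6.42% and 1.39% of all genes). In pD lungs 1 gene was higher and 4 were lower (2.27% and 9.09% of the members, against 9.79% and 5.4% of all genes). DD lungs exceeded pD lungs for 1 gene and were lower for 0, where 0.918% and 0.841% of all genes were called. The shares of members called higher in tumours and in DD lungs lay near those of all genes, those called lower in both and higher in pD lungs lay below, and that called lower in pD lungs lay above. Single arrays moved these counts: the 5 in tumours became 1 without wild type array 3 and 3 without tumour array 1 or wild type array 1 or 2, and 1 gene was lower without tumour array 2. The 4 lower in pD lungs became 1 without pD array 2 and 2 without pD array 1 or 3 or wild type array 1 or 3, and 2 genes were higher there without DD array 3. In DD lungs 1 gene was lower without wild type array 3, and the 1 call against pD lungs was lost without DD array 1 or pD array 1 or 2. Where 0 members were called lower with limma, the number lower at an unadjusted p under 0.05 was 1 in tumours, 1 in DD lungs and 0 for DD against pD lungs. The number higher at that threshold was 10, 10 and 11 of 44. Over all 18193 genes, 5595, 4242 and 3252 passed it in either direction. Differences were positive for 35, 34 and 41 of the 44 members, and for 17 in pD lungs against wild type. The share of positive differences over all genes was not computed. The median over the members was 0.14 in tumours, 0.10 in DD lungs and -0.02 in pD lungs against wild type (log2), against 0.01, 0.01 and 0.02 over all genes. For DD against pD lungs it was 0.12, against -0.002 over all genes. The members were not tested as a set.

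**Figure D1:**
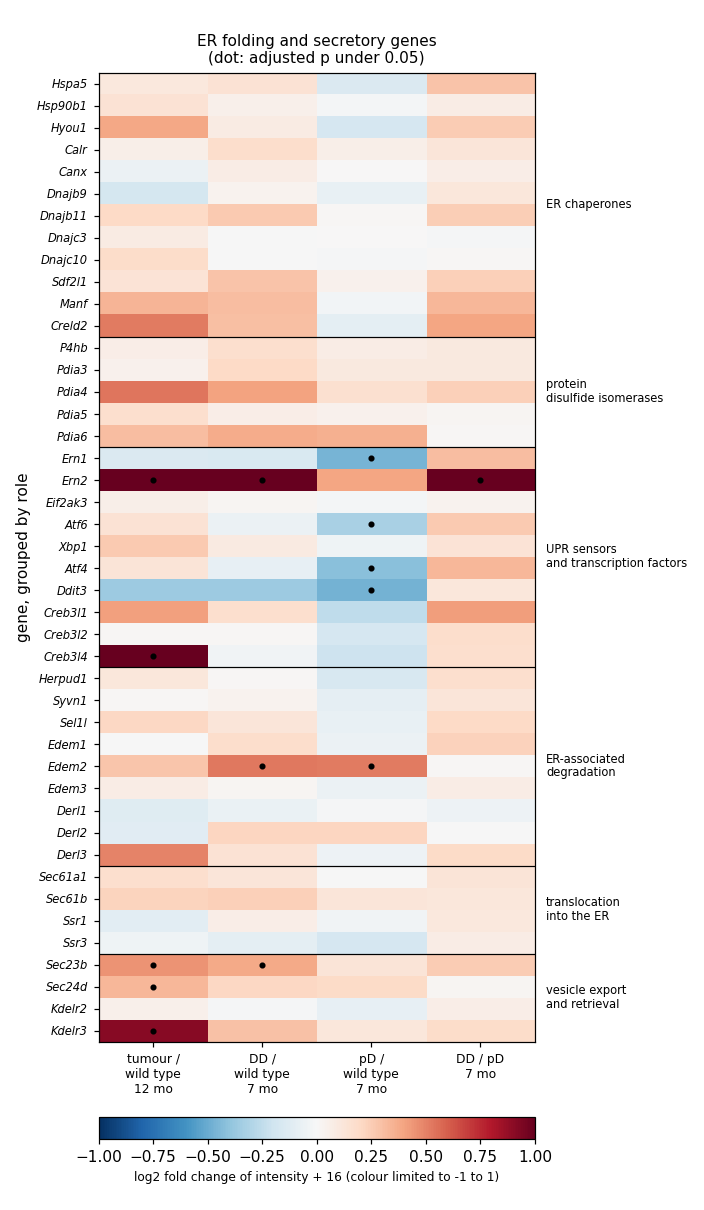
Log2 fold change of intensity + 16 for each of the 44 genes (rows, grouped by role) in 4 comparisons (columns); red is higher and blue lower in the group named first, the colour is limited to -1 to 1, and a dot marks an adjusted p under 0.05. Dots lie among the sensors and factors, Edem2 and the vesicle genes, with none among the chaperones, disulfide isomerases and translocation genes.

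No chaperone passed the test. Of the 12, which include the HSP70 protein BiP (Hspa5), the HSP90 protein GRP94 (Hsp90b1), the lectins calreticulin and calnexin, and DNAJ co-chaperones, 0 were called in any comparison with limma. At an unadjusted p under 0.05, 6 of the 12 passed in at least 1 comparison. Of all 18193 genes, 3252 to 5595 passed that limma threshold in a single comparison. Their share in at least 1 comparison was not computed, here or for the lists below. Hspa5 read 8181, 8422 and 8568 in tumours, against 7391, 9239 and 6906 in wild type lungs at 12 months. It read 6845, 6674 and 8412 in DD lungs, 6165, 5729 and 5992 in pD lungs and 7415, 6764 and 5715 in wild type lungs at 7 months. The tumours lay within the range of their wild type lungs, and so did 2 of the 3 DD arrays and all 3 pD arrays. The Hspa5 difference was 0.11 ± 0.12 (log2, SE) in tumours, 0.14 ± 0.12 in DD lungs and -0.15 ± 0.12 in pD lungs against wild type, with adjusted p of 0.615, 0.537 and 0.476. The 95% interval for tumours ran from -0.19 to 0.41 on the log2 scale.

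Creld2, an ER-resident factor induced by ER stress, had the largest chaperone difference in tumours. It read 2514, 2018 and 2922 in tumours, against 1532, 2282 and 1434 in wild type lungs at 12 months, with a difference of 0.52 ± 0.22 (log2, SE, adjusted p = 0.169). Wild type array 2 lay inside the tumour range. Over the 12 chaperones the median difference was 0.14 in tumours, 0.11 in DD lungs and -0.02 in pD lungs, against 0.01, 0.01 and 0.02 over all genes. Single arrays stood apart for several chaperones at once: DD array 3 was the highest of its group for Hspa5 (8412), Manf (3575), Sdf2l1 (842) and Creld2 (1675). Wild type array 2 at 12 months was the highest of its group for the same genes, at 9239, 4209, 1502 and 2282. The median difference of the list from the wild type mean was 0.27 on DD array 3 and 0.21 on that wild type array, with the other DD arrays at 0.06 and 0.02 and the other wild type arrays at -0.08 and -0.11.

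Disulfide isomerases, which form and reshuffle disulfide bonds in secreted proteins, were also without a call: 0 of 5 passed with limma in any comparison, and 3 of 5 reached an unadjusted p under 0.05 in at least 1. Pdia4 came nearest, at 846, 893 and 1142 in DD lungs, 858, 734 and 824 in pD lungs and 728, 753 and 671 in wild type lungs at 7 months. All 3 DD values lay above the wild type values, and the difference was 0.40 ± 0.12 (log2, SE, adjusted p = 0.0788). In tumours Pdia4 read 1918, 1476 and 2307, against 1228, 1556 and 1105 in wild type lungs at 12 months, and the groups overlapped (0.54 ± 0.20, adjusted p = 0.128). Pdia6 differed by 0.37 ± 0.13 in DD lungs and by 0.35 ± 0.13 in pD lungs against wild type (log2, SE, adjusted p = 0.133 and 0.109). The 4 translocation genes, which code for subunits of the SEC61 channel and its associated TRAP complex, gave 0 calls with limma, and 2 of 4 reached an unadjusted p under 0.05. Sec61b differed by 0.23 in tumours (adjusted p = 0.103) and 0.24 in DD lungs (adjusted p = 0.0946) on the log2 scale. For Sec61a1 the probe sets disagreed in tumours: the one chosen differed by 0.16, and 2 dimmer ones by 0.71 and 0.59 (log2).

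**Figure D2:**
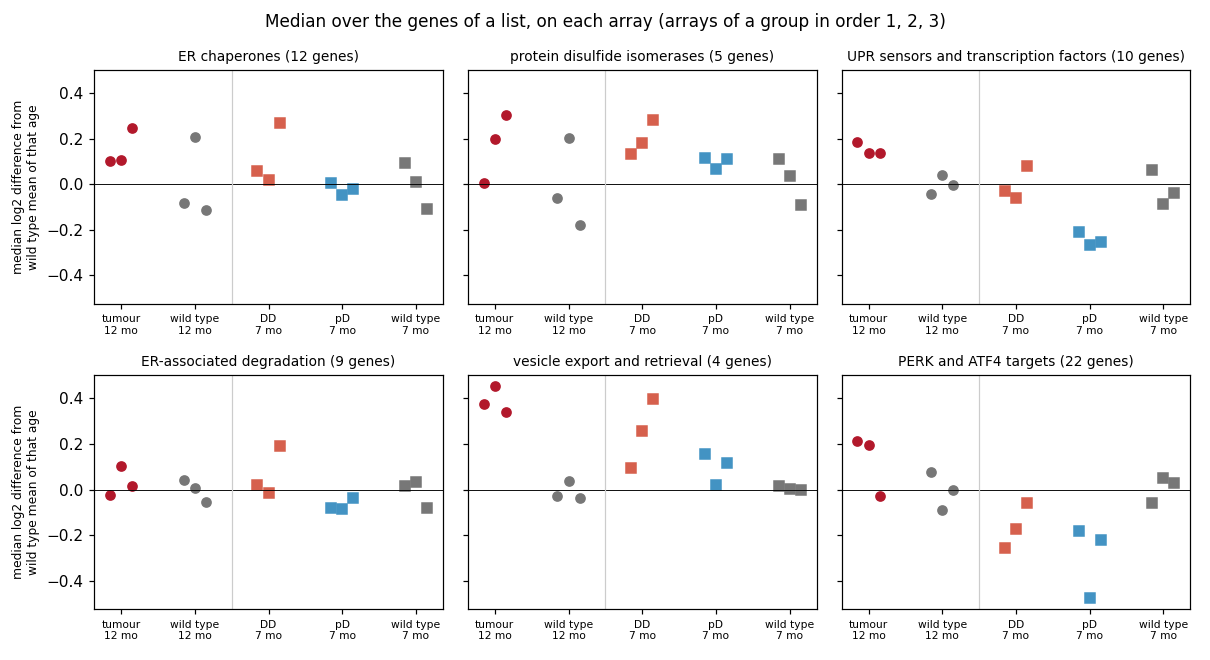
Median over the genes of a list of the log2 difference from the wild type mean of the same age (vertical axis), 1 point per array, by group (horizontal axis). The 3 tumour arrays lie between 0.34 and 0.46 for vesicle genes and the 3 pD arrays between -0.27 and -0.21 for sensors and factors, while chaperone medians of tumours, from 0.10 to 0.25, overlap those of wild type lungs, from -0.11 to 0.21.

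Among the sensors, Ern2 had the largest difference from wild type of any member in tumours and in DD lungs. It read 183, 181 and 304 in tumours, against 6.44, 13.7 and 15.1 in wild type lungs at 12 months. At 7 months it read 39.7, 56.8 and 28.5 in DD lungs, 5.57, 5.42 and 13.6 in pD lungs and 3.88, 1.03 and 1.87 in wild type lungs. Every tumour and DD value lay above the values of its wild type lungs, every DD value also lay above every pD value, and the wild type and pD values were all under 16, at the dim end of the arrays. On the log2(intensity + 16) scale, which understates changes of dim genes, Ern2 was higher by 3.08 ± 0.23 in tumours (SE, n = 3 each, adjusted p = 0.00364), an 8.46-fold difference. The corresponding difference in DD lungs was 1.63 ± 0.19 (3.1-fold, adjusted p = 0.00108), and DD exceeded pD lungs by 1.24 ± 0.19 (adjusted p = 0.0186). In pD lungs the difference from wild type was 0.39 ± 0.19 with a 95% interval from -0.04 to 0.82, and it did not pass (adjusted p = 0.212).

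The DD-over-pD call for Ern2 was lost without DD array 1 (adjusted p = 0.0564), without pD array 1 (0.0879) and without pD array 2 (0.0817), and in 3 of the other settings tried. The calls of Ern2 in tumours (14 settings) and in DD lungs (18 settings) held in every setting tried. Leaving out dim genes removes Ern2 and is not among these settings. The values ran from 1.90 to 4.17 in tumours and from 0.67 to 3.75 in DD lungs, with pseudocounts of 64 and 1. Markers of mucous cells were higher in all 3 mutant groups, also in pD lungs, where Ern2 did not pass: 14 of 19 were called higher and 0 lower in tumours, 11 and 0 in DD lungs, and 9 and 0 in pD lungs. Between DD and pD lungs, where Ern2 was called, 1 of 19 markers was called higher and 1 lower, beside 0.918% and 0.841% of all genes. Differences of DD from pD lungs were positive for 17 of 19 markers, with a median of 0.42 (log2), against -0.002 over all genes. At an unadjusted p under 0.05 with limma, 9 were higher and 1 lower. The summed intensity of the 19 markers was 35548 to 42075 in tumours, against 10228 to 19372 in wild type lungs at 12 months. At 7 months it was 24347 to 26600 in DD lungs, 17336 to 18382 in pD lungs and 2956 to 8765 in wild type lungs. Agr2, a disulfide isomerase of mucus-producing cells, had the largest difference of the 19 markers in tumours (4.44) and in DD lungs (3.95, log2). The medians over the 19 were 1.36 and 0.99. In pD lungs the median was 0.73 and the largest difference of any marker 2.74. Spdef, a goblet cell factor, read 105 to 156 in tumours, against 18.3 to 33.5 in wild type lungs at 12 months, and was called. It read 31.1 to 42.4 in DD lungs, 10.6 to 23.2 in pD lungs and 19.7 to 30 in wild type lungs at 7 months, with no call. The part of these cells in the Ern2 result was not tested, and in bulk tissue more cells of a type and more RNA per cell cannot be told apart.

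Creb3l4, a membrane-bound factor of the CREB3 family that is released by cleavage, was the other sensor-group gene called in tumours. It read 108, 83.8 and 147 in tumours, against 12.8, 33.7 and 26.1 in wild type lungs at 12 months, with no overlap. The difference was 1.69 ± 0.26 (log2, SE), or 3.23-fold, at an adjusted p of 0.0125. At 7 months it read 50.8, 37.9 and 18.9 in DD lungs, 33, 25.8 and 27.1 in pD lungs and 41.8, 50.8 and 18.9 in wild type lungs. These groups overlapped, and neither DD (-0.03, adjusted p = 0.961) nor pD lungs (-0.20, adjusted p = 0.703) differed from wild type by the test. Without wild type array 3, the adjusted p in tumours was 0.0501, and against the 1 male wild type array alone it was 0.0537, with a difference of 1.35. Creb3l1, its relative, differed by 0.41 ± 0.17 in tumours (log2, SE, adjusted p = 0.167).

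**Figure D3:**
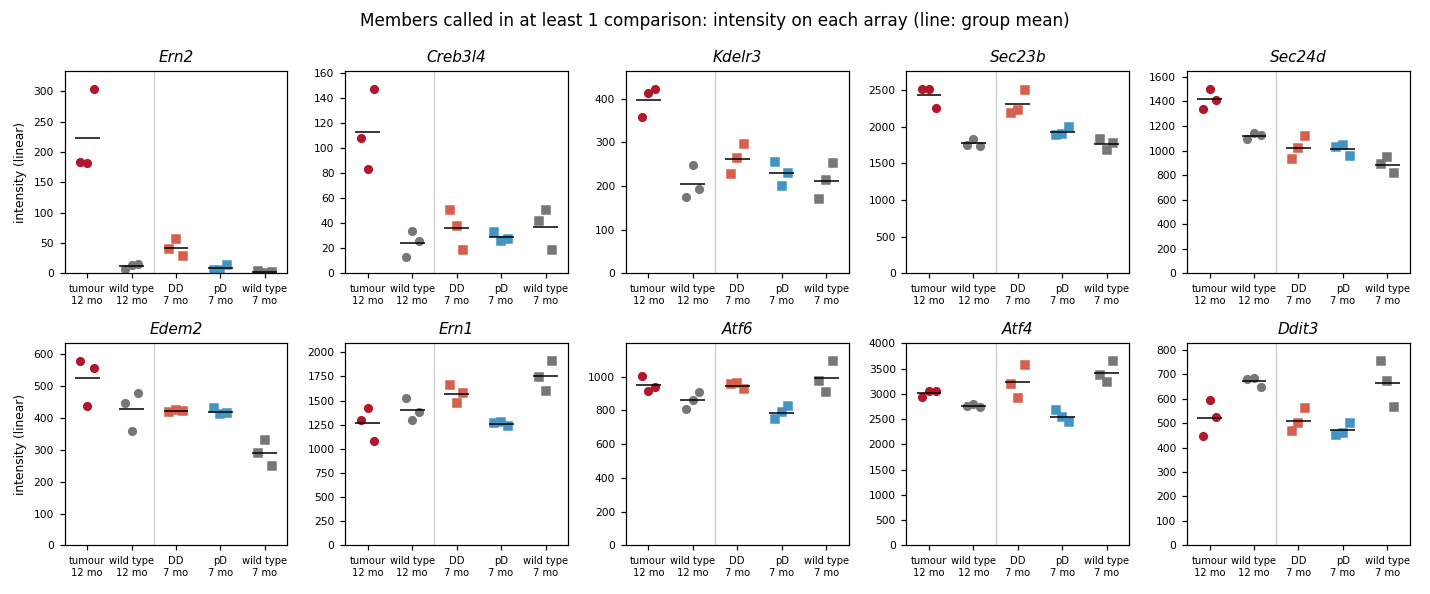
Intensity on the authors' linear scale (vertical axes) of the 10 genes called in at least 1 comparison, 1 point per array and a line at each group mean, for tumours, wild type at 12 months, DD, pD and wild type at 7 months from left to right. Ern2 reads 181 to 304 in tumours and 28.5 to 56.8 in DD lungs, above all other arrays, while Ern1, Atf6 and Atf4 are lowest in pD lungs among the 7-month groups.

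In pD lungs 4 of the 10 sensors and factors were lower than in wild type, and 0 were higher, where 5.4% and 9.79% of all genes were called. Ern1, the IRE1 form found in most tissues, read 1270.2, 1277 and 1238 in pD lungs, against 1744, 1603 and 1905 in wild type lungs at 7 months. Atf6 read 748, 791 and 824 in pD lungs, against 972, 911 and 1091 in wild type lungs. For both genes the groups were apart, with differences of -0.46 ± 0.08 (log2, SE, adjusted p = 0.00545) for Ern1 and -0.32 ± 0.08 (adjusted p = 0.0266) for Atf6. Atf4 read 2676, 2538 and 2434 in pD lungs, against 3365, 3233 and 3641 in wild type lungs. Ddit3, which ATF4 is known to induce, read 451, 459 and 500.3 in pD lungs, against 752, 670.1 and 565 in wild type lungs. Both fell without overlap, by 0.42 ± 0.09 for Atf4 (log2, SE, adjusted p = 0.0157) and by 0.47 ± 0.11 for Ddit3 (adjusted p = 0.0248).

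The same genes in DD lungs gave no call against wild type. Ern1 read 1658, 1476 and 1581, Atf6 955, 961 and 927, and Atf4 3193, 2909.8 and 3579 in DD lungs. These ranges overlapped those of wild type lungs, with differences of -0.15, -0.06 and -0.08 on the log2 scale. Ddit3 read 468, 498 and 563 in DD lungs, just below the wild type values, and its difference of -0.36 ± 0.11 did not pass (adjusted p = 0.0932). Set directly against pD lungs, DD lungs differed by 0.31 for Ern1 (adjusted p = 0.0946), 0.26 for Atf6 (0.145), 0.33 for Atf4 (0.113) and 0.11 for Ddit3 (0.651), none of which passed. In tumours Ddit3 read 446, 595 and 524, against 679.9, 684 and 647 in wild type lungs at 12 months, at -0.36 ± 0.12 (adjusted p = 0.0926).

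The pD calls differed in how far they depended on probe sets and arrays. Ern1 has 5 probe sets, which differed by -0.46 for the one chosen and by -0.07 to -0.34 for the others (log2), and with the mean of all 5 the call was lost (-0.24, adjusted p = 0.0602). Atf6 has 3, of which the others gave -0.10 and 0.06, and with their mean the call was also lost (-0.12, adjusted p = 0.391). Atf4 is read by a probe set whose name marks possible cross-hybridisation, and its other bright probe set gave -0.61; the mean of all 3 gave -0.27, and the call held (adjusted p = 0.0291). The Atf6 call was lost without pD array 1 (adjusted p = 0.102), 2 (0.0763) or 3 (0.0517) and without wild type array 1 (0.0556) or 3 (0.0616). The Ddit3 call was lost without pD array 1 (0.088) or 2 (0.0797) and without wild type array 1 (0.0668) or 2 (0.0572). The Atf4 call was lost without pD array 2 (0.0542) or 3 (0.0624) and without wild type array 3 (0.0523), while that of Ern1 held without any single array. Xbp1, the target of IRE1, read 6245, 6306 and 6137 in pD lungs, against 7111, 6443 and 5805 in wild type lungs, with overlap and a difference of -0.05 (adjusted p = 0.815); the arrays do not tell its spliced from its unspliced form here. Eif2ak3, which codes for PERK, differed by -0.02 (adjusted p = 0.894).

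Of the 9 degradation genes, which extract misfolded proteins from the ER, Edem2 was the only one called. It made up 11.1% of this list, called higher in DD and in pD lungs, beside 6.42% and 9.79% of all genes. EDEM2 is known to trim mannose from misfolded glycoproteins. It read 418, 426 and 421 in DD lungs, 432, 411 and 414 in pD lungs and 289, 330.4 and 248 in wild type lungs at 7 months. All 6 mutant values lay above all 3 wild type values. The difference was 0.53 ± 0.09 in DD lungs (log2, SE, 1.44-fold, adjusted p = 0.0108) and 0.52 ± 0.09 in pD lungs (1.43-fold, adjusted p = 0.00752). DD and pD lungs differed by 0.01, with a 95% interval from -0.21 to 0.23. With the mean of both its probe sets the pD value was 0.29 (adjusted p = 0.016), and in a fit of the DD and wild type arrays alone the DD call was lost (adjusted p = 0.0536). In tumours Edem2 read 577, 436 and 557, against 447, 358 and 479 in wild type lungs at 12 months, which overlapped (0.28 ± 0.15, adjusted p = 0.281). Its relatives Edem1 and Edem3 differed by -0.06 to 0.17 against wild type over the 3 comparisons. Derl3, a derlin of the retrotranslocation complex, read 338, 171 and 448 in tumours, against 247, 204 and 175 in wild type lungs (0.49 ± 0.34, adjusted p = 0.38).

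Vesicle genes held 3 of the 5 calls in tumours, among 4 genes (75% of this list, beside 9.23% of all genes called higher). Sec23b codes for a subunit of the inner COPII coat that buds from the ER. It read 2512, 2513 and 2262 in tumours, against 1754, 1837 and 1736 in wild type lungs at 12 months. At 7 months it read 2192, 2235 and 2495 in DD lungs, 1894, 1899 and 2000.3 in pD lungs and 1836, 1687 and 1778 in wild type lungs. Tumours and DD lungs lay above their wild type lungs without overlap, and pD lungs lay between DD and wild type lungs. The difference was 0.45 ± 0.08 in tumours (log2, SE, 1.36-fold, adjusted p = 0.0199) and 0.38 ± 0.07 in DD lungs (1.3-fold, adjusted p = 0.0137). In pD lungs it was 0.13 ± 0.07 (adjusted p = 0.287), and the direct difference of DD from pD lungs, 0.25 ± 0.07, did not pass (adjusted p = 0.127). Other cell type markers moved in DD lungs as well: 9 of 10 ciliated markers were higher, with sums of 7762 to 9289, against 4673 to 4780 in wild type lungs. Club cell markers were higher for 5 of 8, at 64073 to 67047, against 56265 to 58784, and endothelial markers lower for 3 of 10, at 22255 to 27420, against 31346 to 32130.0. Their part in the DD results for Ern2, Edem2 and Sec23b was not tested. In a fit of the DD and wild type arrays alone the Sec23b call was lost (adjusted p = 0.0629).

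Kdelr3 codes for a receptor that returns ER residents from the Golgi by their KDEL tail. It read 359, 412 and 422 in tumours, against 174, 249 and 193 in wild type lungs at 12 months, a difference of 0.91 ± 0.14 (log2, SE, 1.88-fold, adjusted p = 0.0133). It read 228, 264 and 296 in DD lungs, 256, 199.8 and 230.2 in pD lungs and 170.1, 213 and 254 in wild type lungs at 7 months. The tumours lay apart from their wild type lungs, whereas the 7-month groups overlapped, with 0.30 in DD lungs (adjusted p = 0.29) and 0.11 in pD lungs (adjusted p = 0.705). Kdelr2, the related receptor, differed by 0.05 in tumours (adjusted p = 0.705). Sec24d, a cargo-binding COPII subunit, read 1336, 1499.9 and 1415 in tumours, against 1091, 1141 and 1130.2 in wild type lungs (0.33 ± 0.08, 1.26-fold, adjusted p = 0.0412).

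These calls were close to the threshold. Sec24d lost its call without any 1 of the 6 arrays (adjusted p from 0.0678 to 0.129). Sec23b lost its tumour call without tumour array 1 (0.0657) or wild type array 1 (0.0723), 2 (0.0551) or 3 (0.073). Kdelr3 lost its call without wild type array 3 (0.0572) and against the male wild type array alone (0.64, adjusted p = 0.071). Of the promoters shown above, those of Kdelr3 and Sec24d hold UPRE, and both genes were higher in tumours, where 9.23% of all genes were. Of the 9 ERSE genes, 0 were called in any comparison. The share of all genes called in at least 1 comparison was not computed, and these genes are too few to set the elements against each other. The part of these elements in the calls was not tested. Markers of other cells also moved in tumours: 10 of 10 ciliated cell markers were higher, with summed intensity of 12721 to 18701, against 6129 to 7811 in wild type lungs. Endothelial markers were lower for 6 of 10, at 9112 to 14295, against 19705 to 22034, and macrophage markers for 5 of 9, at 16274 to 26024, against 36427 to 43470. All 8 cardiac muscle markers were higher, at 29063 to 33511, against 11535 to 16668. Their part in the vesicle gene results was not tested.

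The difference of effects, tumour over wild type at 12 months minus DD over wild type at 7 months, was called higher for 2 members and lower for 0, where 1.75% and 1.41% of all genes were called. Of the members, 4 were higher and 1 was lower at an unadjusted p under 0.05. Ern2 differed by 1.45 ± 0.31 (log2, SE, adjusted p = 0.0272) and Creb3l4 by 1.72 ± 0.41 (adjusted p = 0.0428). With a pseudocount of 1 in place of 16 the Ern2 difference was 0.42 (adjusted p = 0.783), as its 7-month wild type values, from 1.03 to 3.88, then weigh more. Neither call held against the male wild type array alone at 12 months. Ern2 lost its call without tumour array 3 (0.0508), wild type array 1 at 12 months (0.0573), DD array 1 (0.0648) or 3 (0.0578), or wild type array 1 (0.0653) or 3 (0.0583) at 7 months. Creb3l4 lost its call in 13 of 24 settings, with adjusted p from 0.0616 to 0.101 over the 11 single arrays whose removal ended it, which were all but tumour array 2, wild type array 2 at 12 months, DD array 1 and wild type array 3 at 7 months. Without tumour array 2, 1 other member was called lower. Age, kind of tissue and any batch between the ages differ together here and cannot be told apart.

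Beyond the members, 155 other genes of these pathways were examined in 8 lists. In tumours 13 were higher and 4 lower (8.39% and 2.58%, beside 9.23% and 6.02% of all genes), and in DD lungs 8 and 2 (5.16% and 1.29%, beside 6.42% and 1.39%). In pD lungs 8 were higher and 12 lower (5.16% and 7.74%, beside 9.79% and 5.4%). None of these shares of the 155 exceeded that of all genes, except for lower genes in pD lungs. DD lungs exceeded pD lungs for 3 and were lower for 0, where 0.918% and 0.841% of all genes were called. One of these lists holds 22 genes known to be induced through PERK and ATF4. In tumours 7 of 22 were higher and 1 lower (31.8% and 4.55%, beside 9.23% and 6.02% of all genes). In DD lungs 1 was higher and 1 lower (4.55% each, beside 6.42% and 1.39%), and in pD lungs 1 was higher and 7 lower (4.55% and 31.8%, beside 9.79% and 5.4%). Without wild type array 3 at 12 months the 7 higher genes in tumours became 1, without wild type array 2 or tumour array 1 they became 3, and without tumour array 3 they became 4. The 7 lower genes in pD lungs became 4 without pD array 1 or 2.

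Asns, which makes asparagine and whose promoter with a CARE match is given above, had the smallest adjusted p of this list in pD lungs. It read 1140.1, 1229 and 1149 in DD lungs, 856, 857 and 799 in pD lungs and 1669, 1592 and 1614 in wild type lungs at 7 months. The 3 groups did not overlap: pD lungs were lowest, DD lungs came between and wild type lungs were highest. The difference was -0.47 ± 0.06 in DD lungs (log2, SE, adjusted p = 0.00231) and -0.94 ± 0.06 in pD lungs (1.92-fold lower, adjusted p = 8.14e-05), and DD exceeded pD lungs by 0.48 ± 0.06 (adjusted p = 0.00927). In tumours Asns read 1409, 1398 and 1353, against 1172, 1017 and 923 in wild type lungs at 12 months, higher by 0.42 ± 0.11 (adjusted p = 0.0463). The tumour call was lost without any 1 of the 6 arrays (adjusted p from 0.0501 to 0.13), while the calls at 7 months held in all 19 settings tried.

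Slc7a5, a large neutral amino acid transporter, read 408, 270.2 and 269 in tumours, against 161, 100.04 and 118 in wild type lungs at 12 months. It read 206, 227 and 251 in DD lungs, 131, 133 and 118 in pD lungs and 219, 273 and 302 in wild type lungs at 7 months. Tumours were higher by 1.22 ± 0.22 (log2, SE, adjusted p = 0.0192) and pD lungs lower, at -0.96 ± 0.12 (adjusted p = 0.0013). DD lungs overlapped wild type (-0.20, adjusted p = 0.386) and exceeded pD lungs by 0.77 ± 0.12 (adjusted p = 0.0214). The tumour call was lost without wild type array 2 (0.061) or 3 (0.0728), and the call of DD against pD lungs without DD array 2 (0.0581) or 3 (0.0729) or pD array 1 (0.0825), 2 (0.0726) or 3 (0.0866). Aars, an alanine tRNA ligase, was lower by 1.54-fold in pD lungs (adjusted p = 0.00214). Nupr1, a stress-induced chromatin protein, went the other way and was higher in all 3 comparisons with wild type. It read 8364, 7991 and 7817 in tumours, against 3475, 3818 and 3649.9 in wild type lungs at 12 months (1.14 ± 0.08, adjusted p = 0.0032), and differed by 0.63 in DD lungs (adjusted p = 0.00197) and 0.46 in pD lungs (adjusted p = 0.00697). Psat1, of serine synthesis, was higher by 0.88 ± 0.13 in tumours (adjusted p = 0.012), and Chac1, which breaks down glutathione, by 0.54 ± 0.09 (adjusted p = 0.0136). Without wild type array 3 at 12 months, both calls were lost (0.0522 for Psat1 and 0.0513 for Chac1), and that of Chac1 also without tumour array 1 (0.0503).

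**Figure D4:**
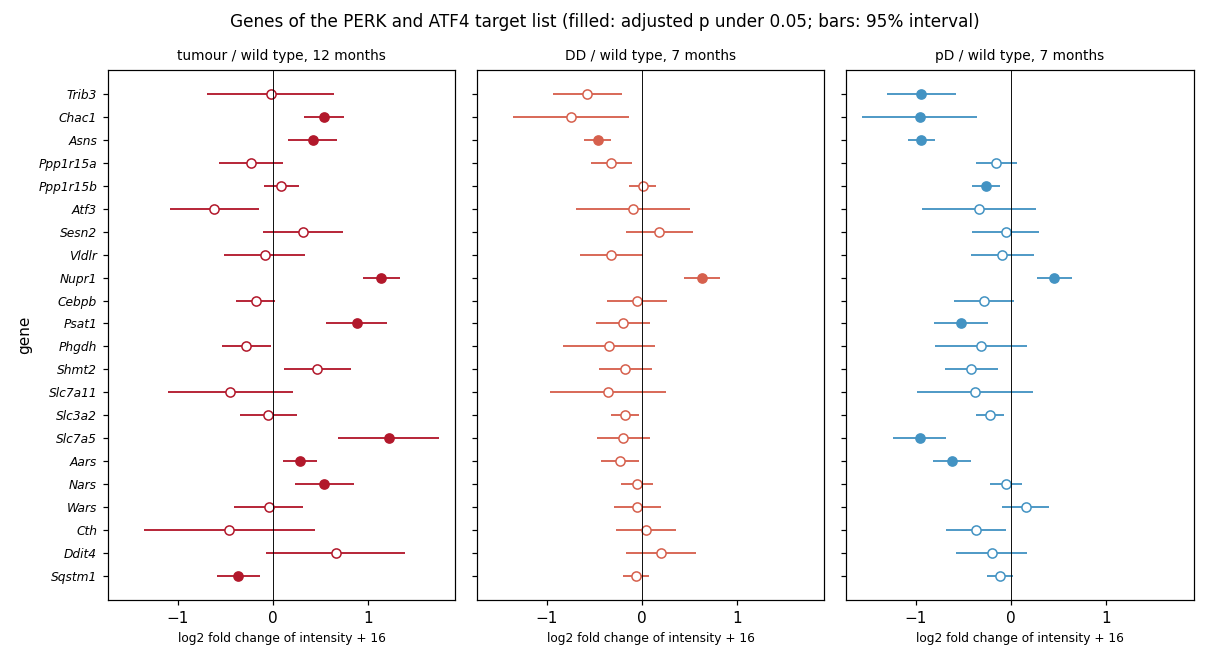
Log2 fold change of intensity + 16 (horizontal axes) with its 95% interval for 22 genes induced through PERK and ATF4 (rows), in tumours, DD lungs and pD lungs against wild type lungs of the same age; filled points passed at an adjusted p under 0.05. Tumours have 7 filled points above 0 and pD lungs have 7 below 0, with Nupr1 above 0 in all 3 panels.

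Markers that moved in pD lungs included those of plasma cells, with 6 of 10 higher and summed intensity of 20855 to 21508, against 7862 to 17265 in wild type lungs. All 10 ciliated cell markers were higher too, at 8728 to 9517, against 4673 to 4780, and 4 of 10 endothelial markers were lower, at 25878 to 27088, against 31346 to 32130. Their part in the lower sensors and ATF4 targets was not tested. Fkbp11, a prolyl isomerase, was 0.61 ± 0.15 higher in pD lungs (log2, SE, adjusted p = 0.0296), a call lost without pD array 1 (0.0596), 2 (0.0772) or 3 (0.1) or wild type array 3 (0.0833) and with the mean of all its probe sets (0.32, adjusted p = 0.158).

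Genes of the other lists were called as well. Gfpt1, which starts hexosamine synthesis, was higher by 0.63 ± 0.09 in tumours (log2, SE, adjusted p = 0.0118) and by 0.37 ± 0.07 in DD lungs (adjusted p = 0.0161). Tusc3, a subunit of the oligosaccharyl transferase, was higher by 0.47 ± 0.09 in tumours (adjusted p = 0.0232) and by 0.52 ± 0.07 in pD lungs (adjusted p = 0.0013). The nucleotide exchange factor of BiP, Sil1, was higher by 0.50 ± 0.10 in tumours (adjusted p = 0.0225). Of 16 COPI genes, whose coat returns vesicles to the ER, 3 were higher in tumours (18.75%, beside 9.23% of all genes). These were Copg1, Copg2 and Copb2, by 0.32 to 0.36. Of 28 further genes of COPII export, 0 were higher and 1, the cargo receptor Tmed5, was lower (-0.46). These are 0% and 3.57% of that list, beside 9.23% and 6.02% of all genes. In DD lungs Sec11c, of the signal peptidase, was higher by 0.41 and Tmed3 by 0.33. Fkbp14, a prolyl isomerase of collagen folding, had the largest difference in pD lungs over the 155 genes, and read 1036, 782 and 810.3 in DD lungs, 546, 474 and 472 in pD lungs and 1144, 1097 and 1286 in wild type lungs. It was lower in pD lungs by 2.32-fold (-1.22 ± 0.12, adjusted p = 0.000415) and higher in DD than in pD lungs by 0.79 ± 0.12 (adjusted p = 0.0183), while DD and wild type lungs differed by -0.43 (adjusted p = 0.0699). Of the calls in these lists, those of Gfpt1 in tumours, Tusc3 in pD lungs and Fkbp14 in pD lungs held without any single array. With the mean of all probe sets, however, Gfpt1 differed by 0.26 in tumours (adjusted p = 0.0934) and by 0.09 in DD lungs (adjusted p = 0.493), and both calls were lost. So measured, Fkbp14 differed by -0.58 in pD lungs (adjusted p = 0.00746) and by 0.50 between DD and pD lungs (adjusted p = 0.06). The call of Gfpt1 in DD lungs was lost without DD array 2 (0.051) or 3 (0.0529), and that of Fkbp14 between DD and pD lungs without pD array 2 (0.0817) or 3 (0.0794). Sil1 lost its call without tumour array 1 (0.0729) or 3 (0.0693) or wild type array 2 (0.0637) or 3 (0.0758). Tusc3 in tumours lost its call without any array but tumour array 2, Tmed5 likewise, and the 3 COPI genes without any 1 of the 6 arrays. Leaving out each of the 9 arrays at 7 months in turn, Tmed3 in DD lungs kept its call only without wild type array 2, and Sec11c only without DD array 1 or wild type array 2.

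In the disulfide and prolyl isomerase list, the thioredoxin-like Txndc12 was higher by 0.29 in pD lungs (log2, adjusted p = 0.0168), and in DD lungs Fkbp2 was higher by 0.29 (adjusted p = 0.0212) and Fkbp7 lower, at -0.32 (adjusted p = 0.0186). For the oligosaccharyl transferase, Stt3b, a catalytic subunit, was lower in pD lungs (-0.33, adjusted p = 0.0211) and Ostc was higher in DD lungs (0.35, adjusted p = 0.0451). Of the signal recognition particle, Srp14 was higher (0.24, adjusted p = 0.0245) and Srp68 lower (-0.21, adjusted p = 0.0413) in pD lungs, where Sec11c was higher by 0.37 (adjusted p = 0.0286). In degradation, the ubiquitin-conjugating enzyme Ube2g2 was lower in pD lungs (-0.42, adjusted p = 0.00314), while the lectin Erlec1 (0.32, adjusted p = 0.0335) and the ubiquitin ligase Rnf5 (0.27, adjusted p = 0.04) were higher, and Herpud2 was lower in tumours (-0.30, adjusted p = 0.0428). Mbtps2, the protease that makes the second cut of ATF6, was lower in tumours (-0.35, adjusted p = 0.0463). The ER membrane gene Wfs1 was lower in pD lungs (-0.47, adjusted p = 0.0293), and Nucb2, which binds calcium, and the coat gene Copg2 were higher in DD lungs (0.34 and 0.35, adjusted p = 0.0316 and 0.0424). Of the calls in this paragraph, only that of Ube2g2 held without any single array, and Txndc12 lost its call only without pD array 1 (0.0738); each other call was lost without at least 3 of the arrays fitted. With the mean of all probe sets, calls were lost in tumours for Copg1 (0.18), Tmed5 (-0.23) and Herpud2 (-0.27). They were also lost in DD lungs for Fkbp7 (-0.13), Ostc (0.28), Sec11c (0.26) and Tmed3 (0.22), and in pD lungs for Erlec1 (0.08), Srp14 (0.19) and Sec11c (0.30).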

How the data were processed

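The authors deposited 1 linear intensity per array for each of 45101 probe sets. Total RNA was extracted with TRIzol and RNeasy and labelled by the Affymetrix 3' IVT Express protocol, per the labels' protocols; background correction, summarization, scaling and genome build are not given in the sources used here. The origin of values equal to 1 (1.46% to 2.01% per array) is likewise not given.

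The platform annotation names 34958 probe sets with 1 symbol. The brightest probe set of each gene by mean log2 value was kept, which gave 18193 genes. Log2(intensity + 16) was fitted with limma 3.58.1 in R 4.3.3 (lmFit, eBayes, two-sided), with Benjamini-Hochberg adjustment over all 18193 genes and calls at an adjusted p under 0.05. The 12-month groups were fitted on 6 arrays, the 7-month groups in 1 model of 9 arrays, and the difference of effects over all 15. The steps were tested on simulated data. Adjusted p-values come from these fits or, where a left-out array or another setting is named, from the same fit with that change. Tumours against the male 12-month wild type array alone were the exception. That fit held the arrays of all groups, so its spread came also from the 7-month arrays.

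The members, the lists and the tests were chosen with earlier results of these data known. All members are accounted for, with full values for those called in at least 1 comparison; of the other pathway genes, up to 3 called genes per list and comparison were named by smallest adjusted p. Asns and Slc7a5 in tumours, Nupr1 in pD lungs and 4 genes in the difference of effects fall outside that rule and were named after their values were seen. Members given without a call, the Sec61a1 probe sets and marker genes are examples. All 12-month labels but 1, a tumour, name an animal, whereas 7-month labels give replicate numbers alone. Nothing else says that samples are separate animals, so p-values measure the spread between these samples, which may be technical in part. The number of arrays limits the precision. Alternatives were quantile normalization, median centring, pseudocounts of 1 and 64, leaving out dim genes or _x_at probe sets, the mean of all probe sets, a variance trend with robust fit, fits of 2 groups only, only the 12-month wild type array without Xist, a replicate block, and leaving out each array. The other deleted gene of the mutant genotypes is not reported here.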

Additional observations from a re-analysis of the deposited data

Results flagged for a closer look

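A direct test compared the effects in tumours and DD lungs, each taken against wild type lungs of its own age. It called 10 of the genes examined, and in every case the effect against wild type was higher in tumours. These calls were 2 of the 44 members (4.55%) and 8 of the 155 other genes (5.16%), including 7 of 22 PERK and ATF4 targets (31.8%). Of all genes, 1.75% were called higher and 1.41% lower. Among the members these were Ern2, by 1.448 on the log2 scale (adjusted p = 0.0272), and Creb3l4, by 1.724 (adjusted p = 0.0428). Ern2 lost this call in 9 of 24 settings, with a difference of 0.42 and an adjusted p of 0.783 at a pseudocount of 1, and Creb3l4 lost it in 13 of 24. The COPI coat gene Copb2 differed by 0.3903 (adjusted p = 0.0464). In the list of PERK and ATF4 targets, Asns differed by 0.8847 (adjusted p = 0.00306), Psat1 by 1.084 (adjusted p = 0.0101) and Slc7a5 by 1.413 (adjusted p = 0.0124). Nupr1 differed by 0.5112 (adjusted p = 0.0258), Aars by 0.516 (adjusted p = 0.0264), Nars by 0.5927 (adjusted p = 0.042) and Chac1 by 1.284 (adjusted p = 0.0464); these 4 were named after their values were seen and each lost its call without at least 1 array, as did Copb2. With the mean of all probe sets, Copb2 (0.23), Aars (0.38) and Nars (0.33) also lost their calls. Asns and Slc7a5 kept their calls in all 25 settings tried. With 3 arrays a group, single arrays were not tested as outliers.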

How the results depend on the processing

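Settings were recomputed for the calls of named genes, not for genes named without a call. None of these calls changed direction in any setting, and of 1251 recomputed calls 903 held and 348 were lost; the cause of lost calls was not tested. Counts of members called moved as follows. Leaving out dim genes removes Ern2 and Creb3l4 from the fit, so in that setting their calls were not tested and drop out of the counts. In tumours, 5 higher genes became 3 without dim genes, which leaves 42 members, and 2 against the 12-month wild type array without Xist. In DD lungs, 3 higher became 5 with a variance trend and robust fit and 1 in a fit of the 2 groups only, and 0 lower became 1 with median centring and 1 with the trend. In pD lungs, 1 higher became 2 with a pseudocount of 64, 2 without dim genes and 2 with the trend, and 4 lower became 2 with the mean of all probe sets. For DD against pD lungs, 1 higher became 0 with a pseudocount of 1, without dim genes and in a fit of the 2 groups only, 2 without _x_at probe sets and 3 with the trend. For the difference of effects, 2 higher became 0 with a pseudocount of 1, without dim genes and with the array without Xist. Leaving out each array gave 1 to 5 higher and 0 to 1 lower in tumours, 3 to 3 and 0 to 1 in DD lungs, 1 to 2 and 1 to 4 in pD lungs, 0 to 1 and 0 to 0 for DD against pD lungs, and 0 to 2 and 0 to 1 for the difference. The lowest tumour count, 1, was without wild type array 3.

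Counts of PERK and ATF4 targets were recomputed the same way, an alternative chosen after seeing the data. The 7 higher in tumours became 4 with median centring, 4 with a pseudocount of 1 and 1 to 7 without single arrays. The 7 lower in pD lungs became 4 to 8 without single arrays. The 7 higher in the difference became 2 with the array without Xist and 3 to 8 without single arrays.

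Samples of the same number at 7 months correlated at -0.128 to 0.161 in their deviations, and samples of different numbers at -0.181 to 0.15. These values do not show that the numbers pair samples, and they cannot exclude it. With the replicate block, DD against pD gave 0 members higher, the difference gave 1 member and 4 targets higher, and the Ddit3 call in pD lungs was lost (adjusted p = 0.0609). Signal limits Ern2, whose wild type and pD values lie under 16.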
